A study of Mus musculus with 8 samples.

Results

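The 9 genes described here make and remove superoxide in phagocytes and lung tissue: Cybb, Cyba, Ncf1, Ncf4 and Rac2 encode subunits of the phagocyte NADPH oxidase, Sod1, Sod2 and Sod3 the superoxide dismutases, and Cat encodes catalase. They were chosen by name, and every probe set (a group of short array probes that reads 1 transcript) with a single gene symbol among them was taken, 23 in all. Of these, 20 passed a filter on low signal, and all 9 genes were among the 13854 genes tested. The main value of a gene is that of its brightest probe set, by the mean of all 8 arrays, and the others are given beside it.

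The RNA was from right lung, lobe 1, of males of the outbred ICR strain of mice, which were 5 to 6 weeks old and had received a single instillation into the trachea. The 4 groups of 2 arrays were lungs given Pluronic F-68 (PF68, a surfactant used as solvent) and taken on day 1, lungs given 0.5 mg single-walled carbon nanotubes (SWCNT) and taken on day 1, and the same treatments taken on day 7. The nanotubes were given in 50 µl of 0.1% PF68, so all groups had received the surfactant, and no untreated lung was among them. The design sets SWCNT against the solvent in an acute phase (day 1) and a sub-chronic phase (day 7). Replicates are called biological in the labels, but no animals are named, so each p-value covers the spread between the arrays at hand and that spread may be technical.

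In phagocytes the oxidase is assembled on demand. The products of Cybb, which carries electrons across the membrane, and of Cyba, its stabilizing partner, sit in the membrane. On activation the organizer encoded by Ncf1, the adaptor encoded by Ncf4 and the small GTPase encoded by Rac2 or its relative Rac1 join them, and the complex reduces oxygen to superoxide. Superoxide dismutases turn superoxide into hydrogen peroxide in the cytosol (Sod1), in mitochondria (Sod2) and outside cells (Sod3, abundant in the lung's vessel walls), and catalase in peroxisomes breaks the peroxide down.

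The sequence upstream of 4 of these genes is shown because Cybb, Cyba and Ncf1 had the 3 largest positive differences of the 9 genes in SWCNT lungs on day 7, while the main probe set of Sod2 differed least between treatments of all 9 on day 1. RefSeq promoter sequence (build GRCm38.p6) was found for 6 of the 9 genes, and the 250 bases before the listed transcript start were searched on both strands. The windows lie at chrX:9469325-9469574 for Cybb, chr8:122432941-122433190 for Cyba and chr5:134229626-134229875 for Ncf1, all on the minus strand, and at chr17:13007589-13007838 on the plus strand for Sod2. Capitals mark matches to GAAA, any 2 bases and GAAA again (the interferon response element), GAGGAA (the core bound by the myeloid factor PU.1), GGGCGG (the Sp1 box) or CCAAT, on either strand.
Cybb: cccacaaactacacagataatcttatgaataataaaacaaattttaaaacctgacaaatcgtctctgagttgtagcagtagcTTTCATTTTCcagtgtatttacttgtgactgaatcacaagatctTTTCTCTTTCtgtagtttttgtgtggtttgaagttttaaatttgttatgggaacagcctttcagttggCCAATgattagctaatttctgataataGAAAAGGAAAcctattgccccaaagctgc
Ncf1: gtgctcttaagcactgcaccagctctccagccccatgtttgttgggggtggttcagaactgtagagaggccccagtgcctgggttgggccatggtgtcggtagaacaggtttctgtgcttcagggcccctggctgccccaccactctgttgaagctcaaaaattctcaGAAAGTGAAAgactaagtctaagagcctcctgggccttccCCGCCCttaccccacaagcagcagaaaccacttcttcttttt
Cyba: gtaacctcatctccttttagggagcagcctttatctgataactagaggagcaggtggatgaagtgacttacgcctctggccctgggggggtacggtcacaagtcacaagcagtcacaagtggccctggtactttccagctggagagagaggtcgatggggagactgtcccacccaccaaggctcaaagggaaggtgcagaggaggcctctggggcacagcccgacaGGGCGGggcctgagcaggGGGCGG
Sod2: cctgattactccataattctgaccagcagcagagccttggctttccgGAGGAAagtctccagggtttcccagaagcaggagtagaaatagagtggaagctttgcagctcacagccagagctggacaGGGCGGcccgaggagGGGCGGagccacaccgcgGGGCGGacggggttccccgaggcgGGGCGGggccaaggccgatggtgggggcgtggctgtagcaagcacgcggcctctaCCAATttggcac
The Cybb window held the interferon element 3 times, once as spelled above and 2 times on the other strand (TTTC, any 2 bases, TTTC). The Ncf1 window held it 1 time, against 2.98% of all 32851 promoter windows of this length that hold it at least once. That share is over windows of any base composition. G and C made up 34% of the Cybb window and 54.4% to 66.4% of the other windows searched for these genes. The Cyba window held GGGCGG 2 times and that of Sod2 4 times. This motif was also found in the Ncf1 window, as CCGCCC, and in the windows of Sod1 and Cat, which are not shown. It was present in 32.7% of all windows. GAGGAA was found in the Sod2 and Cat windows, and in 23.3% of all windows. CCAAT was found in the Cybb, Sod1, Sod2 and Cat windows and in 33.8% of all windows. The NF-kappaB site searched, GGGAC followed by TTTCC, was in none of the 6 genes' windows and in 0.14% of all. These matches describe letters only and are not measured binding.

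All arrays held the same sorted values, with a median of -0.628 on a scale read as log2, so differences are relative to a common distribution, and levels of different probe sets cannot be set against each other. Within a group the arrays correlated at 0.914 to 0.94 over all probe sets. The mean level of 5 alveolar type 2 cell markers was 6.31 to 6.58 over the arrays, so the defining markers of lung epithelium were present. Several features moved with the groups. RNA shortening raises the signal at the 3′ end of a transcript over that at its 5′ end, and for beta-actin this gap was 2.01 to 2.04 in PF68 and 1.31 to 1.36 in SWCNT on day 1, and 3.25 to 3.29 in PF68 and 2.94 to 2.99 in SWCNT on day 7. It was larger on day 7 than on day 1 and, within each day, smaller in SWCNT than in PF68 lungs without overlap. For Gapdh the gap was 1.03 to 1.05 in PF68 and 0.68 to 0.75 in SWCNT on day 1. On day 7 that of Gapdh was 2.29 to 2.52 in PF68 and 2.11 to 2.31 in SWCNT, which overlapped. The part of these gaps in the differences below was not tested. The mean of 7 striated muscle markers was 3.45 to 3.57 on the SWCNT day 1 arrays and -1.23 to -0.78 on the other 6. That of 4 adipocyte markers was 3.71 to 3.72 on the SWCNT day 1 arrays against 1.38 to 1.53 in PF68 on that day, and on day 7 it was 1.29 to 1.63 in SWCNT against 2.32 to 2.35 in PF68. Scaling arrays to the bacterial hybridization spikes moves the median gene's SWCNT minus PF68 difference from -0.02 to -0.22 on day 1 and from 0.02 to 0.63 on day 7, and changes below are relative to the deposited scale. With that scaling 7 of the 9 genes (all but Sod1 and Cat) were called higher in SWCNT lungs on day 7, where 7056 of all 13854 genes were called.

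Cybb, the catalytic subunit, was the only one of the 9 genes called in a comparison of SWCNT with PF68, lower on day 1 and higher on day 7 by its brightest probe set. Its signal there (probe set 1436778_at) was 3.69 and 3.58 on the PF68 day 1 arrays, 2.70 and 2.71 on the SWCNT day 1 arrays, 2.83 and 2.88 on the PF68 day 7 arrays, and 3.49 and 3.45 on the SWCNT day 7 arrays. The groups did not overlap, and the order from high to low was PF68 day 1, SWCNT day 7, PF68 day 7 and SWCNT day 1, with no test between PF68 day 1 and SWCNT day 7 or between PF68 day 7 and SWCNT day 1. The SWCNT minus PF68 difference was -0.93 ± 0.10 on day 1 (log2 difference ± SE, n = 2 arrays per group; 0.525 of the PF68 level; limma, Benjamini-Hochberg adjusted p = 0.0179) and 0.62 ± 0.10 on day 7 (1.53-fold; limma, adjusted p = 0.0499). The change of the SWCNT effect between the days was 1.55 ± 0.15 (limma, adjusted p = 0.0168).

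These Cybb calls rested on that probe set and on all arrays. The second probe set of Cybb read 1.83 and 1.94 in PF68 day 1, 1.57 and 1.62 in SWCNT day 1, 1.45 and 1.66 in PF68 day 7, and 1.76 and 1.51 in SWCNT day 7, so that the day 7 groups overlapped. Its differences were -0.29 on day 1 and 0.08 on day 7, and those of the dimmest one were -0.39 and -0.12. With the mean of all 3 in place of the brightest, the differences were -0.54 (limma, adjusted p = 0.199) and 0.19 (limma, adjusted p = 0.563), and the change between days was 0.73 (limma, adjusted p = 0.185). Leaving out any 1 of the 8 arrays ended the day 7 call (limma, adjusted p = 0.0926 to 0.191) and the call between the days (limma, adjusted p = 0.0509 to 0.103). The day 1 call ended without any 1 of the 4 day 1 arrays (limma, adjusted p = 0.109 to 0.142) or either SWCNT day 7 array (limma, adjusted p = 0.0539) and held without either PF68 day 7 array.

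Cyba, the membrane partner of Cybb, had the highest signals on the SWCNT day 7 arrays. Its only probe set (1454268_a_at) read 5.08 and 5.18 in PF68 day 1, 4.83 and 5.01 in SWCNT day 1, 5.10 and 5.02 in PF68 day 7, and 5.71 and 5.66 in SWCNT day 7. The 3 other groups lay close together, between 4.83 and 5.18. The difference was -0.21 ± 0.12 on day 1 (limma, adjusted p = 0.403) and 0.62 ± 0.12 on day 7 (limma, adjusted p = 0.0582), which did not pass the threshold of 0.05, and the change between the days was 0.84 ± 0.16 (limma, adjusted p = 0.0656).

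**Figure D1:**
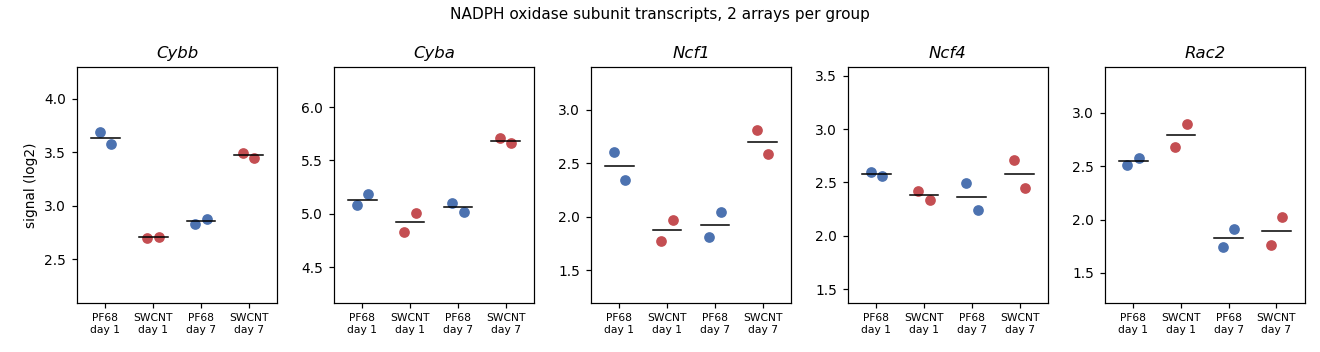
Signal (log2, y axis, each panel spanning 2.2 units) of the brightest probe set of 5 oxidase subunit genes on each array, by group on the x axis. Points are arrays (blue PF68, red SWCNT) and bars are means of 2. For Cybb and Ncf1 the SWCNT points lie under the PF68 points on day 1 and over them on day 7, while both day 7 groups of Rac2 lay below both day 1 groups.

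Ncf1, the organizer that brings the cytosolic subunits to the membrane, went the same way as Cybb on each day but did not pass the threshold. Its brightest probe set (1456772_at) read 2.60 and 2.34 in PF68 day 1, 1.78 and 1.97 in SWCNT day 1, 1.81 and 2.04 in PF68 day 7, and 2.82 and 2.59 in SWCNT day 7. SWCNT lungs lay below PF68 lungs on day 1 and above them on day 7 without overlap. The differences were -0.60 ± 0.17 (limma, adjusted p = 0.146) and 0.77 ± 0.17 (limma, adjusted p = 0.0721), the largest of the 9 genes on day 7, and the change between the days was 1.37 ± 0.23 (limma, adjusted p = 0.0506). The other 2 probe sets of Ncf1 differed by -0.17 and -0.16 on day 1 and by 0.86 and 0.55 on day 7, with the same signs at dimmer signals. The first of these overlapped between treatments on both days, and neither passed on day 7 (limma over all probe sets, adjusted p = 0.369 and 0.115). Their means over the 8 arrays were -0.13 and -0.59, near the array median of -0.628.

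Ncf4, which encodes a cytosolic adaptor of the complex, differed little on the deposited scale. Its only probe set (1418465_at) read 2.60 and 2.56 in PF68 day 1, 2.42 and 2.34 in SWCNT day 1, 2.50 and 2.24 in PF68 day 7, and 2.71 and 2.44 in SWCNT day 7, and the day 7 groups overlapped. The differences were -0.20 ± 0.15 (limma, adjusted p = 0.543; 95% interval -0.56 to 0.17) and 0.21 ± 0.15 (limma, adjusted p = 0.447; -0.16 to 0.58). With spike scaling the day 7 difference was 0.82, which was called (limma, adjusted p = 0.0101).

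Rac2, the GTPase of blood cells that the assembled oxidase needs, lay apart by day in its brightest probe set. On the deposited scale it was not called between treatments. It read 2.51 and 2.58 in PF68 day 1, 2.68 and 2.90 in SWCNT day 1, 1.75 and 1.92 in PF68 day 7, and 1.76 and 2.02 in SWCNT day 7. All 4 day 1 arrays lay above all 4 day 7 arrays. SWCNT lay above PF68 without overlap on day 1, and the day 7 groups overlapped. SWCNT minus PF68 was 0.24 ± 0.15 on day 1 (limma, adjusted p = 0.454) and 0.06 ± 0.15 on day 7 (limma, adjusted p = 0.849), and its dim second probe set differed by 0.77 and -0.13, so that the direction on day 7 was not settled. That probe set read -0.55 and -0.86 in PF68 day 1, 0.27 and -0.15 in SWCNT day 1, -0.95 and 0.53 in PF68 day 7, and -0.40 and -0.27 in SWCNT day 7, and it did not separate the days. With spike scaling the day 7 difference of the brightest probe set was 0.67, which was called (limma, adjusted p = 0.0139).

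Sod1, the cytosolic copper-zinc dismutase, was read by 5 probe sets of which 2 were bright, and these disagreed on day 1. The brightest (1459976_s_at, a suffix for probes that several transcripts can share) read 6.07 and 6.08 in PF68 day 1, 5.71 and 5.74 in SWCNT day 1, 6.77 and 6.65 in PF68 day 7, and 6.34 and 6.33 in SWCNT day 7. SWCNT lay below PF68 on both days, with replicates close together, at -0.35 ± 0.10 (limma, adjusted p = 0.161) and -0.38 ± 0.10 (limma, adjusted p = 0.108). With spike scaling the day 7 difference turned positive, at 0.23. The second (1451124_at) read 5.48 and 5.51, 5.71 and 5.65, 6.25 and 6.39, and 5.69 and 5.73 in the same order of groups, which is higher in SWCNT on day 1 by 0.19 and lower on day 7 (-0.61). Another, dimmer probe set differed by -0.05 on day 1 and 0.39 on day 7, and the remaining 2 did not pass the filter.

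Sod2, the mitochondrial manganese dismutase that inflammatory cytokines induce, did not pass in a treatment comparison on the deposited scale. Its brightest probe set (1448610_a_at) read 4.04 and 4.22 in PF68 day 1, 4.13 and 4.27 in SWCNT day 1, 4.37 and 4.08 in PF68 day 7, and 4.32 and 4.29 in SWCNT day 7, with treatments overlapping on both days. The differences were 0.07 ± 0.14 (limma, adjusted p = 0.848; 95% interval -0.29 to 0.42) and 0.08 ± 0.14 (limma, adjusted p = 0.784; -0.27 to 0.43). With spike scaling its differences were -0.13 on day 1 and 0.69 on day 7, the latter called (limma, adjusted p = 0.0103), and the change between the days was 0.82 (limma, adjusted p = 0.0174). The second probe set (1417193_at), nearly as bright, read 4.10 and 4.11 in PF68 day 1, 4.40 and 4.30 in SWCNT day 1, 3.55 and 3.49 in PF68 day 7, and 3.97 and 3.98 in SWCNT day 7. Here SWCNT lay above PF68 on both days, by 0.25 on day 1 and by 0.45 on day 7 (limma over all probe sets, adjusted p = 0.392 and 0.132). The dimmest of the 3 differed by 0.54 on day 1 and -0.01 on day 7.

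**Figure D2:**
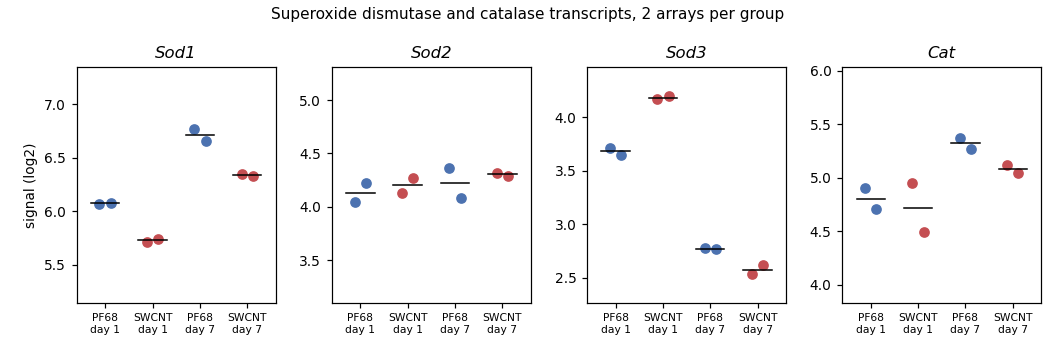
Signal (log2, y axis, each panel spanning 2.2 units) of the brightest probe set of the dismutase and catalase genes on each array, by group on the x axis. Points are arrays (blue PF68, red SWCNT) and bars are means of 2. Sod3 lay between 3.65 and 4.20 on the day 1 arrays and between 2.53 and 2.77 on the day 7 arrays.

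Sod3, the dismutase secreted into the matrix around vessels and airways, was lower on day 7 than on day 1 in both treatments. Its brightest probe set (1417633_at) read 3.71 and 3.65 in PF68 day 1, 4.17 and 4.20 in SWCNT day 1, 2.77 and 2.77 in PF68 day 7, and 2.53 and 2.61 in SWCNT day 7. SWCNT lay above PF68 on day 1 by 0.50 ± 0.10 (limma, adjusted p = 0.0768) and below it on day 7, at -0.20 ± 0.10 (limma, adjusted p = 0.305). The change between the days was -0.70 ± 0.14 (limma, adjusted p = 0.0692). With spike scaling the day 7 difference was 0.41 and the change between the days 0.11, both of the opposite sign. The second probe set differed by 0.37 and -0.02. On day 1 the smooth muscle markers, whose mean was 3.19 to 3.21 on the SWCNT arrays against 2.50 to 2.54 in PF68, and the adipocyte and striated muscle markers were higher on the same arrays, and their part in the Sod3 values was not tested.

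Catalase had 2 bright probe sets that went opposite ways. The brightest (1416429_a_at) read 4.90 and 4.71 in PF68 day 1, 4.95 and 4.49 in SWCNT day 1, 5.37 and 5.27 in PF68 day 7, and 5.12 and 5.04 in SWCNT day 7. Its differences were -0.09 ± 0.18 on day 1, where the groups overlapped, and -0.24 ± 0.18 on day 7 (limma, adjusted p = 0.847 and 0.46), and the day 7 difference was 0.36 with spike scaling. The other (1416430_at) read 4.49 and 4.50 in PF68 day 1, 5.22 and 5.02 in SWCNT day 1, 3.80 and 3.76 in PF68 day 7, and 4.10 and 4.13 in SWCNT day 7. It was higher in SWCNT without overlap on both days, by 0.63 ± 0.13 and 0.34 ± 0.13 (limma over all probe sets, adjusted p = 0.118 and 0.23). No direction for Cat follows from these probe sets.

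Counted over the 9 genes, 1 was called lower on day 1 and 8 were not called, where 2.17% of all 13854 genes were called in either direction. On day 7, 1 was called higher and 8 were not, against 2.18% of all genes, and for the change between the days 1 was called, against 2.34%. The median difference of the 9 was -0.20 on day 1 and 0.08 on day 7, beside -0.02 and 0.02 over all genes. The arrays of SWCNT and PF68 did not overlap for 7 of the 9 on day 1 and 6 on day 7, where 53.2% of all genes did not overlap on either day. With every probe set tested on its own, 1 of the 20 that passed the filter was called on day 1 (0.804% of all probe sets) and 0 on day 7 (limma, 0.512% of all), where 8 of the 20 had an unadjusted p under 0.05 against 19.8% of all probe sets. On day 1 that count was 6 of the 20, against 15% of all. Both days' comparisons have their own PF68 arrays and share none.

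**Figure D3:**
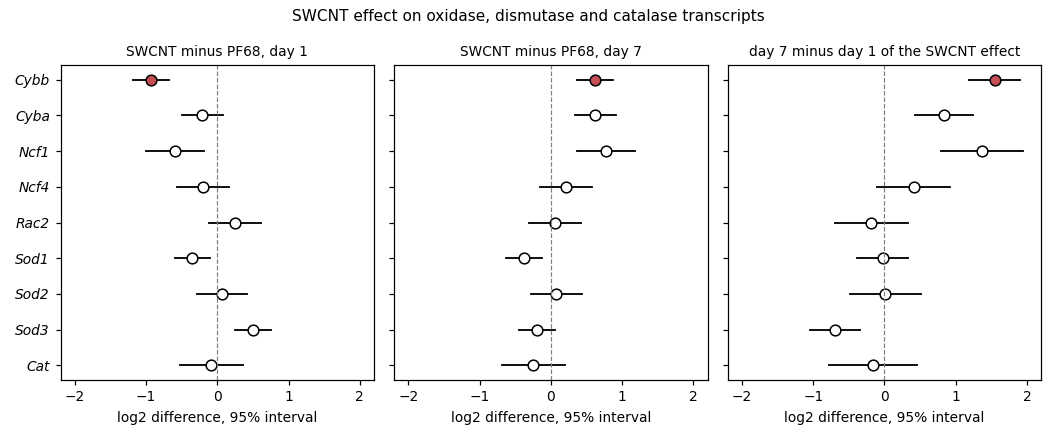
Log2 differences (x axis) of the 9 genes (y axis) for SWCNT minus PF68 on day 1, on day 7, and for the day 7 minus day 1 change of that effect. Points are limma estimates, lines 95% intervals, and filled points passed an adjusted p of 0.05. Cybb alone is filled, at -0.93, 0.62 and 1.55.

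The probe sets of 1 gene could differ in sign. Of the 7 genes with over 1 passing probe set, Cat and Sod1 had both signs on day 1, and Cat, Cybb, Rac2, Sod1 and Sod2 had both on day 7. Between the PF68 groups, for day 7 minus day 1, the probe sets of Cat differed by 0.52 and -0.71, and those of Sod2 by 0.09, -0.58 and 0.68. In the fit of all probe sets the latter 2 of Sod2 were called in opposite directions (limma, adjusted p = 0.0326 and 0.048). In that contrast 9 of the 20 probe sets were called, against 13.1% of all probe sets. The beta-actin gap between 3′ and 5′ signal differed between the same arrays, and its part in these values was not tested.

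**Figure D4:**
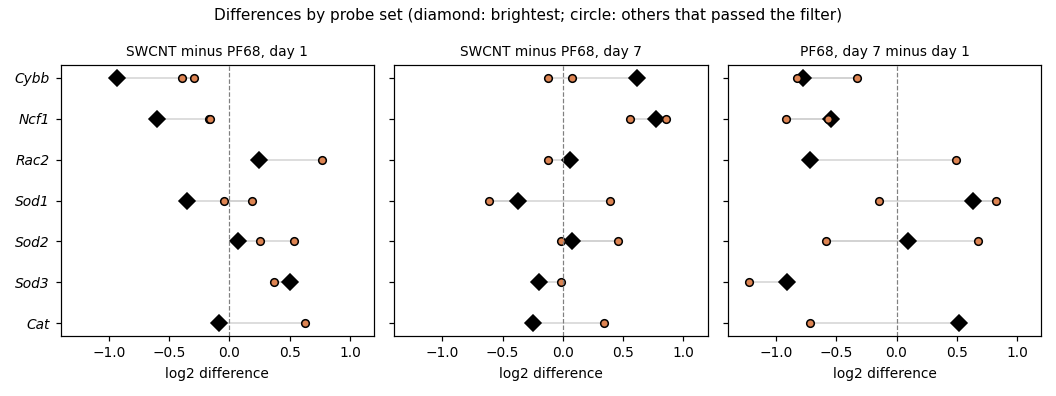
Log2 differences (x axis) of every passing probe set of the 7 genes (y axis) that have over 1, for SWCNT minus PF68 on each day and for PF68 day 7 minus day 1. Black diamonds are the brightest probe sets and orange circles the others. The 2 probe sets of Cat lie on opposite sides of 0 in all panels.

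Between the days, more of the 9 genes passed. In PF68 lungs Sod1 was higher on day 7 than on day 1 by 0.64 ± 0.10, while Cybb (-0.78 ± 0.10), Rac2 (-0.72 ± 0.15) and Sod3 (-0.91 ± 0.10) were lower (limma, adjusted p = 0.0153, 0.0109, 0.0277 and 0.00885), 4 of 9 against 17.7% of all genes. In SWCNT lungs Cybb (0.77 ± 0.10), Cyba (0.76 ± 0.12), Ncf1 (0.83 ± 0.17) and Sod1 (0.61 ± 0.10) were higher on day 7 and Rac2 (-0.90 ± 0.15) and Sod3 (-1.61 ± 0.10, 0.328 of its day 1 level) were lower, 6 of 9 against 16.3% of all genes. These contrasts share arrays with those of treatment. Spike scaling moves the median gene's day 7 minus day 1 difference from 0.04 to -0.60 in PF68 lungs and from 0.09 to 0.27 in SWCNT lungs, so the differences of both treatments are relative to the deposited scale. Without either PF68 day 1 array the count in PF68 lungs was 0 of 9 (limma), and without any 1 of the 4 SWCNT arrays the count in SWCNT lungs was 1 of 9. The second probe set of Sod3 differed by -1.61 in SWCNT lungs, the second of Rac2 by 0.50 in PF68 lungs and that of Cybb by 0.04 in SWCNT lungs. In SWCNT lungs the second probe set of Sod1, nearly as bright as the first, differed by 0.03 and the other 2 of Ncf1 by 0.11 and 0.14 (limma over all probe sets, adjusted p = 0.909, 0.904 and 0.527), and the second of Cat by -1.002 (limma, adjusted p = 0.0132). The day, the handling of the arrays of a day and the RNA signal that differs with it cannot be told apart.

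Markers of the cells that carry the oxidase did not move as 1 group. In these bulk samples fewer cells of a type and less RNA per cell cannot be told apart. Of 4 markers of all leukocytes, Cd52 (-0.94) and Coro1a (-1.08) were lower on day 1 and none were on day 7, and their mean level was 3.71 to 3.76 on the SWCNT day 1 arrays, 4.38 to 4.51 in PF68 day 1 and 4.40 to 4.49 on the 4 day 7 arrays. Of 10 neutrophil markers 1 was lower and 1 higher on day 1, and 5 were lower and 1 higher on day 7, among them S100a8 (-1.16) and S100a9 (-1.13), with a mean level of 1.51 to 1.64 in SWCNT day 7 against 2.45 to 2.50 in PF68 day 7. Of 8 monocyte and macrophage markers 2 were lower on day 1, Ms4a4c and Plac8. None passed on day 7 (limma, 2 of 8 with an unadjusted p under 0.05 in either direction). The day 7 differences of 3 of these 8 lay above 0. Those of all 8 ran from -1.096 ± 0.47 (Ccr2) to 0.63 ± 0.15 (Cd14). That of Csf1r, the receptor of the macrophage growth factor, was -0.02. Of 8 alveolar macrophage markers none passed on day 1 (limma, 5 with an unadjusted p under 0.05 in either direction). Such a p was reached by 2572 of all 13854 genes on day 1 and by 3205 on day 7. The differences of 4 of the 8 lay above 0 on day 1, among them Fabp1 (0.97) and Mrc1 (0.63). Those of Marco (-0.40), Siglecf (-0.40) and Cd68 (-0.41) lay below it. On day 7 Ctsk (3.39) and Cd68 (1.61) were higher (limma, 7 of 8 with an unadjusted p under 0.05 in either direction). The differences of 6 of the 8 lay above 0 on day 7, while Car4 (-0.52) and Fabp1 (-0.24) were below it. Ctsk and Cd68 weigh most in the day 7 difference of the mean level of all 8. That mean was 4.01 to 4.02 in SWCNT day 7 against 3.19 to 3.32 in PF68 day 7. It was 3.32 to 3.38 on the 4 day 1 arrays. Of 6 T cell markers Cd3d was lower on day 1, of 3 red cell markers 1 was, and no T, B or red cell marker passed on day 7. The part of these markers in the oxidase values was not tested.

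Of 19 listed partners and relatives of the oxidase 12 were measured, and none was called on day 1 or on day 7 (limma). An unadjusted p under 0.05 (limma) was reached by 1 and 2 of the 12, beside 2572 and 3205 of all 13854 genes. The median difference of the 12 was -0.00 on day 1 and 0.16 on day 7, beside -0.02 and 0.02 over all genes. Rac1, the widely expressed relative of Rac2, differed by 0.20 ± 0.12 and 0.31 ± 0.12, and Nox4, a catalytic relative of Cybb in vessel walls and fibroblasts, by 0.19 ± 0.13 and 0.19 ± 0.13. The largest differences in this list, named after their values were seen, were those of Hvcn1, a proton channel that balances the oxidase's charge, at 1.03 ± 0.25 on day 7 (limma, adjusted p = 0.0906), and of Arhgdib, which holds Rac proteins inactive in blood cells, at -0.89 ± 0.16 on day 1 (limma, adjusted p = 0.0575). Of 17 listed genes of peroxide and radical handling 12 were measured, 0 were called on day 1 and 1 on day 7 (limma). An unadjusted p under 0.05 in either direction (limma) was reached by 1 of these 12 on day 1 and 7 on day 7. Over all 13854 genes it was reached by 2572 on day 1 and 3205 on day 7. On day 7 the differences of 7 of the 12 lay above 0. The gene called on day 7 was Gpx2, an epithelial glutathione peroxidase. It read 1.70 and 1.98 in PF68 day 7 and 0.88 and 0.93 in SWCNT day 7, a difference of -0.94 ± 0.13 (limma, adjusted p = 0.0392). Ccs, the chaperone that loads copper into the Sod1 protein, was at -0.04 ± 0.12 and 0.60 ± 0.12 (limma, adjusted p = 0.0682 on day 7), and Gpx3, the secreted glutathione peroxidase, at 0.24 ± 0.11 and -0.13 ± 0.11. Mpo, the myeloperoxidase of neutrophil granules, lay below the array median on 6 of 8 arrays and differed by -1.0 ± 0.49 and -1.29 ± 0.49 (limma, adjusted p = 0.349 and 0.196), and Nos2 did not pass the filter.

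The pattern of Cybb over the 8 arrays was most like that of Zfp36, Chia1 and Nuak2 (Pearson r of 0.982, 0.975 and 0.971), of which Chia1 was called on both days, at -1.12 and 0.72. For Sod2 the most alike were Vhl, Cln3 and Lig3 (r of 0.957, 0.947 and 0.947), and for Cat they were Nnt, 8430426J06Rik and Atp6v1g1 (r of 0.991, 0.990 and 0.989). These are descriptions over 8 arrays of 4 groups, picked as the highest of all genes. Among the 9 genes themselves Cybb and Ncf1 had r = 0.90, Rac2 and Sod3 0.96, and Rac2 and Sod1 -0.91 over the same arrays, which differ by day.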

How the data were processed

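Biotin-labelled cRNA made from total RNA was hybridized to Affymetrix arrays of 1 colour, per the labels' protocols. The deposited signals were taken to be on a log2 scale. Per the submitters' processing notes the tool was RMA. Its version, the log base and any offset were not given in the sources used here. If the base were another, differences would change by 1 factor and calls would not. Genes were named from a table of platform annotation updated through RefSeq gene IDs. From 45101 probe sets, 64 controls and 8 with a missing value were left out. Of the rest 34939 had 1 symbol, 931 several and 9159 none listed. Probe sets that reached the median of the array on 2 or more of the 8 arrays were kept (27368, with or without a symbol). Those of them with 1 symbol covered 13854 genes, and the one with the highest mean stood for its gene.

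A model of 4 group means was fitted to all 8 arrays and all genes with limma 3.58.1 in R 4.3.3 (lmFit, eBayes, 4 residual and 1.81 prior degrees of freedom), with Benjamini-Hochberg adjustment over all genes of a contrast and a threshold of 0.05. The number of arrays limits the precision. The procedure was tested on simulated data. The members, the gene lists, the genes named and the alternatives (filter, probe set, spike scaling, variance model, array weights, blocks, left-out arrays) were chosen with earlier results of these data known. The rule named all members, genes of the lists of oxidase partners and of peroxide handling (not of the cell markers) that were called in a SWCNT contrast, 7 genes of these lists fixed by name, of which 1 is not reported here, and the 3 genes most alike Cybb, Sod2 and Cat. Spike scaling subtracted the mean of 9 bacterial spike probe sets. Same-numbered replicates did not deviate together (r from -0.00605 to 0.0114 over the 6 pairs of groups). No column of other samples was present. Figures were drawn with matplotlib 3.10.9.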

Additional observations from a re-analysis of the deposited data

Results flagged for a closer look

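For Cybb the effect of SWCNT differed between the days: the day 7 difference minus the day 1 difference was 1.55 on the log2 scale, from a test of that change itself (limma, adjusted p = 0.0168), with the 2 SWCNT arrays below both PF68 arrays on day 1 and above them on day 7. The other probe sets of Cybb gave 0.37 and 0.27. The cause was not tested.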

How the results depend on the processing

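The 9 genes were called 1, 1, 1, 4 and 6 times for SWCNT minus PF68 on day 1, on day 7, for the change between the days, and for day 7 minus day 1 in PF68 and in SWCNT lungs. In that order, the counts were 1, 0, 1, 3 and 5 without the filter, 1, 2, 3, 4 and 6 with the stricter filter of 4 arrays, 0, 0, 0, 2 and 2 with the mean of all passing probe sets, and 2, 7, 7, 7 and 6 with spike scaling. They were 4, 4, 4, 6 and 6 with limma's trend and robust options, 1, 0, 1, 4 and 6 with array weights, and 2, 3, 4, 5 and 6 at an adjusted p of 0.1. With only the 4 arrays compared they were 0, 0, 0 and 0, with no value for the change between the days. Using the second brightest probe set, an alternative chosen after seeing the data, they were 0, 0, 0, 4 and 3. Same-numbered arrays shared only a number, and with the replicate block the counts were 0, 0, 0, 4 and 5 (Cybb: limma, adjusted p = 0.0539, 0.0924 and 0.0555 in the treatment comparisons). Leaving out 1 array gave 0 to 1, 0 to 0, 0 to 0, 0 to 4 and 1 to 6, the lone array being assumed to vary like the others. Over all genes the 302 called on day 7 became 24 without the filter, 615 with the stricter one, 1617 with trend and robust, 7056 with spike scaling, 15 with the replicate block, 0 with only the 4 arrays compared or without either SWCNT day 7 array, and 4 to 18 without any other array. Signs turned with the mean of probe sets for Cat (0.27 on day 1, 0.046 on day 7), Rac2 on day 7 (-0.035) and the change of Sod2 (-0.11). With the second probe set they turned for Sod1 (0.19) and Cat (0.63) on day 1 and for Rac2 (-0.13) and Cat (0.34) on day 7. With spike scaling they turned for Sod2 on day 1 (-0.13) and for Sod1 (0.23), Sod3 (0.41, limma, adjusted p = 0.0238) and Cat (0.36) on day 7. They also turned for the change of Rac2 (0.63, limma, adjusted p = 0.0478), Sod1 (0.78, limma, adjusted p = 0.011), Sod3 (0.11) and Cat (0.65). Leaving out 1 array moved the differences across 0 for Sod2 (-0.022 to 0.16) and Cat (-0.31 to 0.14) on day 1, Rac2 (-0.073 to 0.19) and Sod2 (-0.063 to 0.22) on day 7, and the changes of Sod1 (-0.087 to 0.033), Sod2 (-0.13 to 0.15) and Cat (-0.39 to 0.070). The cause was not tested. Signals near the array median limit the dim probe sets of Rac2, Ncf1 and Cybb.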

Other observations

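Of the 23 probe sets, 3 did not pass the filter and enter no comparison. That of Sod2 lay between -2.11 and -0.61 on the 8 arrays, below the array median on 7 of them. The 2 of Sod1 lay between -2.08 and -0.94 and between -2.97 and -0.11.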
